A study of Mus musculus with 13 samples.

Results

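The genes described here are 9 core genes of transforming growth factor beta (TGF-beta) signalling, measured in interscapular brown adipose tissue (iBAT) of mice. They are the ligands Tgfb1, Tgfb2 and Tgfb3, the latent binding protein gene Ltbp1, the receptors Tgfbr1, Tgfbr2 and Tgfbr3, and the responders Smad3 and Smad7. They were chosen by name, through their Ensembl identifiers, and make up 9 of the 42416 identifiers counted in each library. Bulk RNA sequencing was performed on iBAT of 13 mice, with 1 library per mouse, 8 from iFAXLKO and 5 from WT animals. Both groups carry floxed Axl, a receptor tyrosine kinase gene, and both were kept at room temperature on a high-fat diet (HFD) and were dosed with tamoxifen every 3 weeks. The iFAXLKO mice are Cre positive, with a tamoxifen-inducible Cre that a bacterial artificial chromosome of the adiponectin gene drives (Adipoq-CreERT2), and the WT mice are Cre negative. Cre is thus aimed at adipocytes, while whole tissue with all its other cells was sequenced. The labels give no age. The comparison asks how Cre activity against Axl in adipocytes alters transcript levels in brown fat of mice on HFD, and here how far it alters those of TGF-beta signalling.

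TGF-beta ligands are secreted in a latent form, bound to a propeptide that latent TGF-beta binding proteins tether to the extracellular matrix, and are released by proteases or integrins. The freed ligand, presented by the co-receptor betaglycan, joins the type II and type I receptor kinases, which phosphorylate SMAD2 and SMAD3. These enter the nucleus with SMAD4 and switch on matrix genes and feedback inhibitors such as SMAD7. In adipose tissue the pathway is known for its part in fibrosis and as a restraint on adipocyte differentiation and browning.

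Libraries held 22.44 to 32.6 M counts (M as in Mb), and mitochondrially encoded genes took 18.33% to 21.31% of them. Levels below are counts per M counts of a library (CPM) with TMM scaling. A count of 0 allows up to 3 counts, or 0.092 to 0.134 CPM, and every member lay above that in every library. Axl itself measured 33.1 ± 6.16 CPM (SD, n = 8) in the libraries labelled iFAXLKO and 27.8 ± 3.82 CPM (SD, n = 5) in the libraries labelled WT. Its log2 fold change of 0.25 (SE 0.13) had an adjusted p of 0.699 by edgeR, so the gene-level counts do not show the deletion, and both groups are named here by their labels. Summed brown adipocyte markers reached 16660 to 21639 CPM in iFAXLKO and 18128 to 27156 CPM in WT libraries, with Ucp1, the uncoupling protein of brown fat, between 4030 and 7894 CPM, so the tissue carried the transcripts of its label.

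Of the 9 members, 0 passed an adjusted p of 0.05 between the groups by edgeR's quasi-likelihood test, against 0.127% of the 13360 genes tested. All 9 had passed the filter of more than 1 CPM in at least 5 libraries. At an unadjusted p under 0.05, 1 of 9, Tgfbr3, was higher in iFAXLKO, where 3.84% of all genes were higher and 3.54% lower. DESeq2 also called 0 of 9, against 0.501% of all genes. The CPM ranges of the groups overlapped for all 9 members, and 0.434% of all genes had ranges that did not overlap. The edgeR log2 fold changes were above 0 for all 9, from 0.02 to 0.28 with a median of 0.11, where 46.4% of all genes lay above 0 and their median was -0.01. When 1 library was left out, the median of the 9 ran from 0.07 to 0.19. It was lowest without WT replicate 2, where Tgfb3 (-0.04), Tgfbr1 (-0.10) and Smad7 (-0.07) lay below 0. Under a fibroblast marker score as a covariate only 4 of 9 stayed above 0, and the median became -0.01. The score was itself 0.52 higher in iFAXLKO on the log2 scale, so that fit cannot fully separate score and group. Over all genes that fit lowered the number at an unadjusted p under 0.05 by edgeR from 986 to 225. By limma-voom Tgfb3, Tgfbr1, Smad7 and Ltbp1 lay below 0. Since bulk RNA was sequenced, fewer cells of a type and less RNA per cell cannot be told apart in any of these values. The p-values measure the spread between mice. Values are also given within the lower and the upper range of the running numbers that the labels give the libraries, which hold 4 iFAXLKO and 3 WT libraries, and 4 iFAXLKO and 2 WT libraries.

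**Figure D1:**
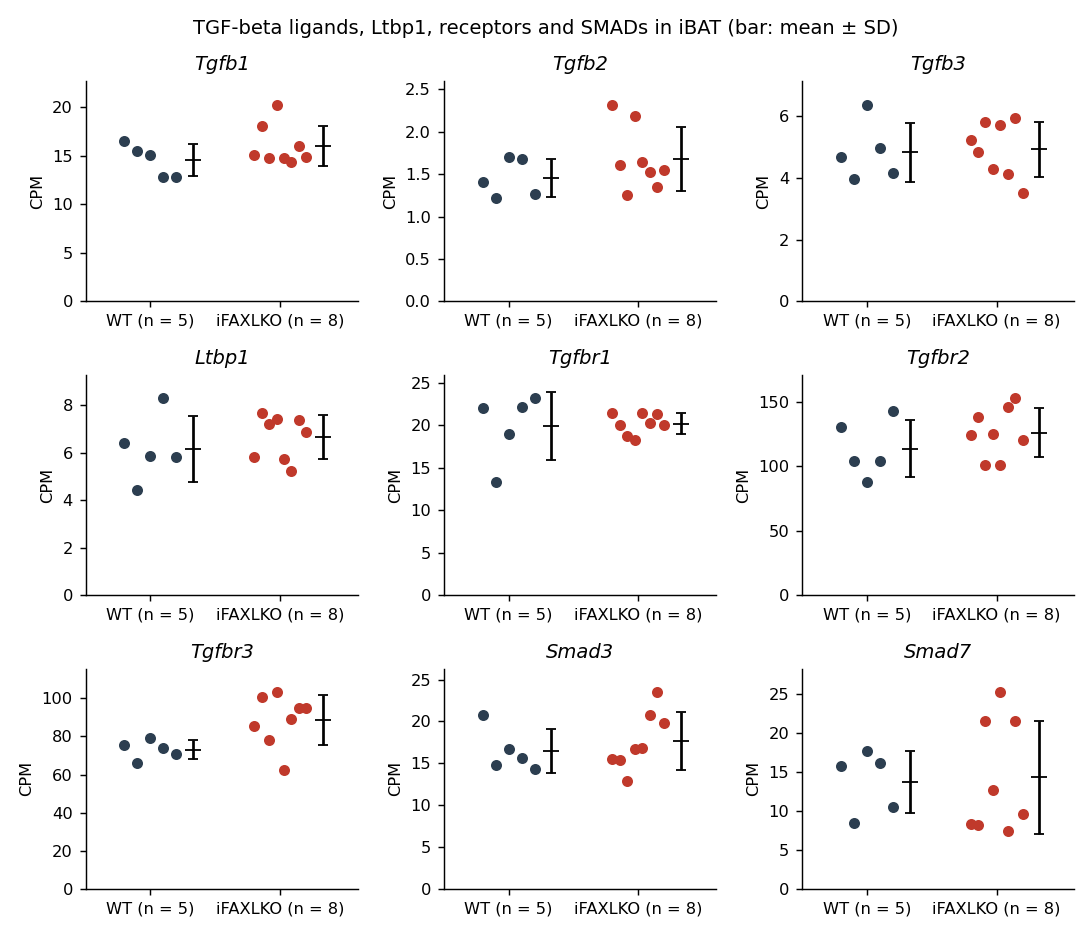
Level of each of the 9 genes in CPM (linear axis from 0), with 1 point per library in replicate order within WT (n = 5, dark) and iFAXLKO (n = 8, red), and mean ± SD beside the points. The groups overlap in all 9 panels, Tgfbr3 has 6 of 8 iFAXLKO points above all WT points, and Smad7 spreads from 7.45 to 25.3 CPM in iFAXLKO.

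Among the ligands, the promoters of Tgfb1 and Tgfb2 are printed because these genes lie at the 2 ends of the ligand levels, and that of Tgfbr2 because it had the highest level of the 9 genes per length. Each window runs from 250 bases before to 50 bases after the transcription start in RefSeq (GRCm38.p6) and is written 5′ to 3′ on the strand of the gene, chr7:25686752-25687051 (+) for Tgfb1, chr1:186705940-186706239 (-) for Tgfb2 and chr9:116175314-116175613 (-) for Tgfbr2. Capitals mark the SMAD box CAGAC, the SP1 motif GGGCGG and the TATA box TATAAA on either strand.
Tgfb1: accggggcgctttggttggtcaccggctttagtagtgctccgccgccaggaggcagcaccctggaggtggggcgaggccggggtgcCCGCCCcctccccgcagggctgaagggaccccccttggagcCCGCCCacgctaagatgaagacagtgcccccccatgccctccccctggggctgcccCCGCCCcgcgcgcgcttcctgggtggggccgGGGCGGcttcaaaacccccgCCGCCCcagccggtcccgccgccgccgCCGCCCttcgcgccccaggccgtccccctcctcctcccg
Tgfb2: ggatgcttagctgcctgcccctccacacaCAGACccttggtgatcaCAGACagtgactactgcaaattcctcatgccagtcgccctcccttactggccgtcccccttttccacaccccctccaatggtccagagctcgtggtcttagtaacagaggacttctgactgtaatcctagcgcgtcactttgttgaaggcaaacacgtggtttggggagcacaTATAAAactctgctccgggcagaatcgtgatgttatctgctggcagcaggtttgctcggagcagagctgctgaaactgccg
Tgfbr2: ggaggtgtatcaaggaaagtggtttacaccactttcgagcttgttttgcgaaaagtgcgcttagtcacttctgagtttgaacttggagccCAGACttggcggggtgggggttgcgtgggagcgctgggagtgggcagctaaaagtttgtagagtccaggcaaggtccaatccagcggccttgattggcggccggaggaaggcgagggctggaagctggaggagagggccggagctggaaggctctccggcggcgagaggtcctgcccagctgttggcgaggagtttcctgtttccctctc
The Tgfb1 window had a GC content of 77.0% and held 6 GGGCGG motifs, with no CAGAC and no TATAAA. The Tgfb2 window had a GC content of 54.3%, held CAGAC 221 and 204 bases before the start and TATAAA 31 bases before it, and had no GGGCGG. The Tgfbr2 window held 1 CAGAC, 160 bases before the start. Over 32851 promoter windows of the same length, 49.6% held CAGAC, 35.7% GGGCGG and 13.6% TATAAA. The table held 8 windows for 6 of the 9 genes, of which 5 held CAGAC, 3 GGGCGG and 1 TATAAA, and it had no entry for Tgfb3, Tgfbr3 and Smad7. TGAGTCA, the AP-1 motif, and the SMAD palindrome GTCTAGAC occurred in 0 of the 8 windows, against 5.20% and 0.213% of all windows, and no motif overlapped another of a different kind. These matches describe letters only.

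Tgfb1 (ENSMUSG00000002603, chromosome 7, 25687002 to 25705077, GRCm38) encodes the prototype ligand of the family, made by many cell types including macrophages, and lies 52.2 kb from Axl on the same chromosome. In WT libraries 1 to 5 it measured 16.5, 15.4, 15.1, 12.8 and 12.8 CPM. The iFAXLKO libraries ran from 14.3 to 20.2 CPM with a median of 15.0. Only the 2 highest iFAXLKO libraries lay above every WT library, and the medians of the groups nearly met. The log2 fold change was 0.14 (SE 0.10, 95% interval -0.07 to 0.35), with an adjusted p of 0.815 by edgeR and 0.191 by the exact permutation test over 1287 assignments of libraries to groups, 2-sided, in which the smallest p possible is 0.000777.

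Tgfb2 (ENSMUSG00000039239, chromosome 1, 186622792 to 186705989), a ligand known from development of heart and skeleton, was close to the filter. Its WT libraries measured 1.41, 1.22, 1.71, 1.68 and 1.26 CPM, and the iFAXLKO libraries 1.25 to 2.32 CPM with a median of 1.58. Only iFAXLKO replicates 1 and 4 stood above the WT range. Between the groups the log2 fold change was 0.21 (SE 0.18, 95% interval -0.17 to 0.58), with an adjusted p of 0.867 by edgeR, an interval that holds values on both sides of 0.

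Tgfb3 (ENSMUSG00000021253, chromosome 12, 86056745 to 86079041), the ligand best known for palate formation, measured 4.68, 3.96, 6.38, 4.97 and 4.17 CPM in WT. The iFAXLKO libraries ran from 3.50 to 5.94 CPM with a median of 5.03, lower at both ends than the WT range. For Tgfb3 the log2 fold change was 0.03 (SE 0.15, 95% interval -0.30 to 0.35) with an adjusted p of 0.988 by edgeR, and its sign turned in 5 of the 13 fits that left out 1 library.

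Ltbp1 (ENSMUSG00000001870, chromosome 17, 75005568 to 75392512) encodes a latent TGF-beta binding protein that anchors the latent complex in the matrix. Its WT libraries measured 6.42, 4.43, 5.88, 8.29 and 5.82 CPM. All 8 iFAXLKO libraries, from 5.23 to 7.65 CPM with a median of 7.05, fell inside the WT range. The log2 fold change was 0.11 (SE 0.14, 95% interval -0.19 to 0.41), with an adjusted p of 0.920 by edgeR. The difference in mean log2 CPM was 0.34 within the lower range of library numbers and -0.15 within the upper, so it did not hold within both ranges.

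Tgfbr1 (ENSMUSG00000007613, chromosome 4, 47353222 to 47414931) encodes the type I receptor kinase, which phosphorylates SMAD2 and SMAD3. It measured 22.03, 13.3, 18.9, 22.1 and 23.1 CPM in WT. The iFAXLKO libraries lay close together, from 18.2 to 21.4 CPM with a median of 20.1, all inside the WT range. Their coefficient of variation was 6.03%, against 20.3% in WT, where replicate 2 alone was far below the rest. For Tgfbr1 the log2 fold change was 0.02 (SE 0.11, 95% interval -0.22 to 0.25) with an adjusted p of 0.988 by edgeR. Without WT replicate 2 it was -0.10.

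Tgfbr2 (ENSMUSG00000032440, chromosome 9, 116084293 to 116175360) encodes the type II receptor kinase, which binds the ligand and activates the type I receptor. The WT libraries measured 130, 104, 87.5, 104 and 143 CPM. The iFAXLKO libraries ran from 100.8 to 152.8 CPM with a median of 125, and 2 of them exceeded all WT libraries. For Tgfbr2 the log2 fold change was 0.15 (SE 0.13, 95% interval -0.13 to 0.42), with an adjusted p of 0.869 by edgeR.

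Tgfbr3 (ENSMUSG00000029287, chromosome 5, 107106570 to 107289629) encodes betaglycan, the co-receptor that presents ligand, TGF-beta 2 above all, to the signalling receptors and that also binds inhibin. It showed the widest group difference among the 9 genes on the log2 scale. WT libraries measured 75.3, 66.0, 79.4, 73.9 and 70.7 CPM. The iFAXLKO libraries measured 62.4 to 103.2 CPM with a median of 92.0. In iFAXLKO 6 of 8 libraries lay above every WT library, and 1, replicate 5, lay below every WT library, so the ranges overlapped. The means were 88.7 ± 13.4 CPM (SD, n = 8) and 73.1 ± 5.03 CPM (SD, n = 5), a ratio of 121%. On the log2 scale the difference was 0.28 (SE 0.11, 95% interval 0.05 to 0.50), with an edgeR p of 0.0186 that became 0.550 after adjustment over all genes. The exact permutation p was 0.0420, 2-sided and for this gene alone. The difference in mean log2 CPM was 0.32 within the lower range of library numbers and 0.22 within the upper, and the fold change stayed between 0.24 and 0.34 when any 1 library was left out. Once the fibroblast score entered as a covariate, it was 0.18, with an adjusted p of 1.00 by edgeR. An overlapping GENCODE gene on the same strand, Gm43422, shares exon sequence with Tgfbr3 and had a mean count of 106 against 2259 for Tgfbr3.

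**Figure D2:**
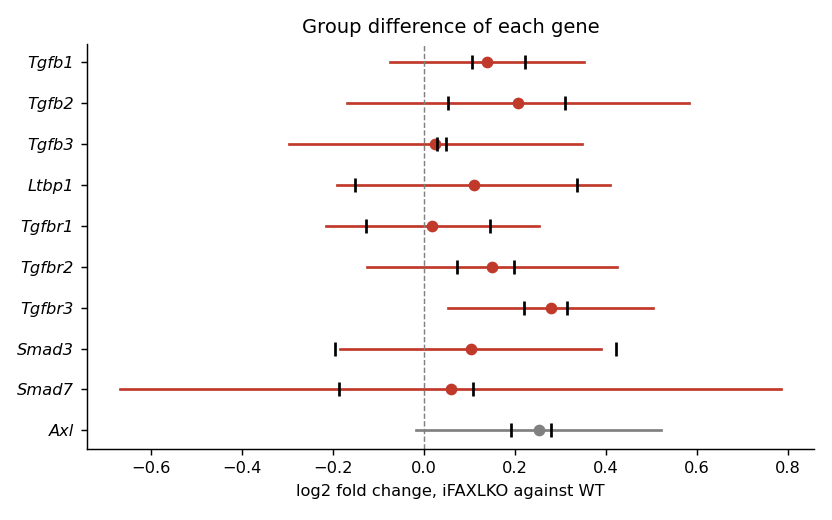
Log2 fold change of iFAXLKO against WT by edgeR for the 9 genes (red) and Axl (grey), with 95% intervals as lines and black ticks at the difference in mean log2 CPM within the lower and the upper range of library numbers. The interval of Tgfbr3, 0.05 to 0.50, lies above 0 before adjustment over all genes, and the other 9 intervals include 0.

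Smad3 (ENSMUSG00000032402, chromosome 9, 63646767 to 63757994) encodes the receptor-activated SMAD that binds the SMAD box in target genes. It measured 20.8, 14.8, 16.7, 15.6 and 14.3 CPM in WT and 12.9 to 23.5 CPM, with a median of 16.7, in iFAXLKO. One iFAXLKO library lay above and 1 below the whole WT range. For Smad3 the log2 fold change was 0.10 (SE 0.14, 95% interval -0.18 to 0.39) with an adjusted p of 0.925 by edgeR. The difference in mean log2 CPM was -0.19 within the lower range of library numbers and 0.42 within the upper, so its direction was not the same in both ranges.

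Smad7 (ENSMUSG00000025880, chromosome 18, 75367529 to 75395935) encodes the inhibitory SMAD, which TGF-beta itself induces and which blocks the type I receptor. It varied more between mice than any other member. WT libraries measured 15.7, 8.52, 17.8, 16.2 and 10.5 CPM. The iFAXLKO libraries measured, from replicate 1 to 8, 8.34, 8.24, 21.6, 12.8, 25.3, 7.45, 21.6 and 9.59 CPM. Replicates 3, 5 and 7 lay above every WT library and replicates 1, 2 and 6 below every WT library. The coefficient of variation was 50.7% in iFAXLKO and 29.1% in WT, and the highest library had 3.39 times the level of the lowest. With means of 14.4 ± 7.28 CPM (SD, n = 8) and 13.7 ± 4.00 CPM (SD, n = 5), and medians of 11.2 and 15.7 CPM, the log2 fold change by edgeR was 0.06 (SE 0.34, 95% interval -0.67 to 0.79) and the difference in mean log2 CPM -0.04. The adjusted p by edgeR was 0.987, and its interval was wider than those of the other 8 genes. The difference in mean log2 CPM was -0.19 within the lower range of library numbers and 0.11 within the upper.

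Tgfbr1 likewise had differences of opposite sign in the lower and upper range, 0.15 and -0.13 in mean log2 CPM. Those of Tgfb1 (0.11 and 0.22), Tgfb2 (0.31 and 0.05), Tgfb3 (0.03 and 0.05) and Tgfbr2 (0.20 and 0.07) had the same sign in both ranges.

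The iFAXLKO libraries with the highest Smad7, replicates 3, 5 and 7, were also the 3 with the highest Tgfb3, at 5.82, 5.72 and 5.94 CPM. With group means subtracted, Pearson's r between Tgfb3 and Smad7 over the 13 libraries was 0.72 (permutation p 0.00951, adjusted p 0.342 over 36 pairs of members) and Spearman's rho 0.71 (permutation p 0.00958, adjusted p 0.345). It was 0.80 once the 2 libraries most distant from the median Tgfb3 level were left out, and 0.61 and 0.90 within the lower and upper range of library numbers. This pair was looked at after the values were seen, and 0 of 36 pairs passed after adjustment.

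Compared per length, as CPM per kb of merged exon over all 13 libraries, Tgfbr2 and Tgfbr3 stood at the head. Tgfbr2 had 14.8 ± 2.50 CPM per kb (SD, n = 13) and Tgfbr3 12.6 ± 2.02 CPM per kb (SD, n = 13). Smad7, Smad3, Tgfbr1 and Tgfb1 followed at 3.12, 3.10, 3.07 and 3.06 CPM per kb, then Tgfb3 at 1.45, Ltbp1 at 0.605 and Tgfb2 at 0.275 CPM per kb. The 2-sided exact sign-flip permutation test on the log2 ratio within each library, adjusted over the 8 neighbour pairs, separated 5 of the 8. Tgfbr2 exceeded Tgfbr3 1.17-fold by the mean log2 ratio over all 13 libraries, and was the higher of the 2 in 11 of them (adjusted p 0.00820). The steps from Tgfbr3 to Smad7, from Tgfb1 to Tgfb3, from Tgfb3 to Ltbp1 and from Ltbp1 to Tgfb2 held in 13 of 13 libraries, each with an adjusted p of 0.000488. Among the 4 genes in the middle, Smad7, Smad3, Tgfbr1 and Tgfb1, neighbours in this order were not separated beyond the spread between libraries. Pairs that are not neighbours were not tested.

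**Figure D3:**
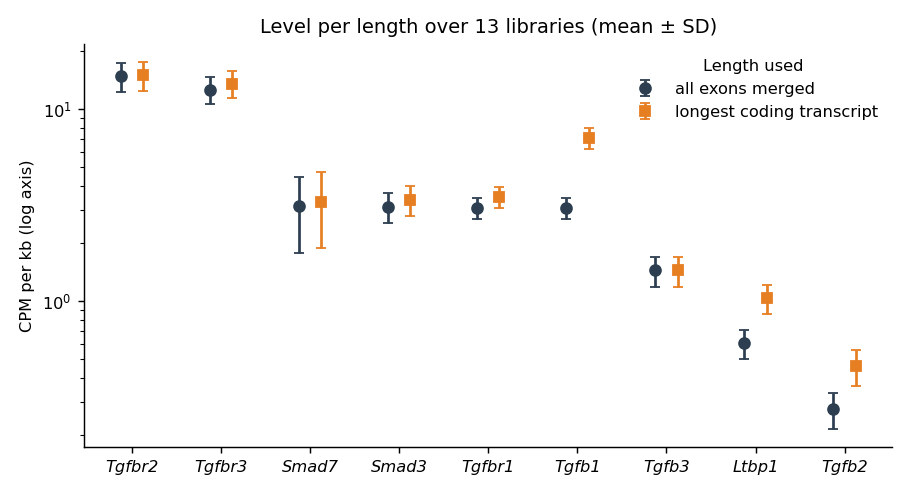
Level per length (CPM per kb, log axis) of the 9 genes as mean ± SD over 13 libraries, in order of the level per merged exon length (circles), with the level per longest coding transcript as squares. Tgfbr2 and Tgfbr3 lie above the other 7 genes by either length, and Tgfb1 moves from 3.06 to 7.10 CPM per kb.

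The length used changes the place of Tgfb1, whose merged exons span 5042 bases and whose longest coding transcript spans 2175. By coding transcript length Tgfb1 came after the 2 abundant receptors, at 7.10 ± 0.92 CPM per kb (SD, n = 13), and Tgfbr2 exceeded Tgfbr3 only 1.10-fold (adjusted p 0.0677 by the same exact test). In that order 5 of 8 neighbour pairs were separated. Among them Tgfbr3 and Tgfb1, and Smad7 and Tgfb3, are not neighbours in the first order. Tgfb1 and Tgfbr1 are neighbours in both orders. By coding transcript length Tgfb1 exceeded Tgfbr1 2.04-fold on average and in 13 of 13 libraries (adjusted p 0.000488 by the same exact test). By merged exon length the ratio of Tgfbr1 to Tgfb1 was 1.00 (adjusted p 0.980 by that test). Of the summed level of the 3 ligands per merged exon length, Tgfb1 made up 64.5% ± 4.51 (SD, n = 8) in iFAXLKO and 63.3% ± 4.78 (SD, n = 5) in WT. Tgfb3 made up 29.6% ± 4.89 and 31.2% ± 4.15, and Tgfb2 5.90% ± 1.20 and 5.52% ± 0.79. By coding transcript length the share of Tgfb1 was 78.8% ± 3.05 (SD, n = 13). These shares differed between the groups by less than the spread between libraries. The type II receptor exceeded the type I receptor 5.00 ± 0.74 times (SD, n = 8) in iFAXLKO and 4.68 ± 1.06 times (SD, n = 5) in WT, per merged exon length.

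The gene most like each member was described by the correlation of log2 CPM over the 13 libraries, group means subtracted, with no test, and these libraries share depth and composition. For Smad7 the closest were Pnrc1 (r 0.95), Ankrd37 (r 0.94), which hypoxia is known to induce, and Zfp263 (r 0.93). For Tgfb1 they were Slc7a7 (r 0.95), an amino acid transporter of macrophages and epithelia, Junb (r 0.83), an AP-1 subunit, and Gm43254 (r 0.80). For Tgfb3 they were Stx3, Plekhm2 and Mospd1 (r 0.91 to 0.93). For Tgfbr3 they were Samd5, Baiap2 and Pkd2l2 (r 0.90 in each case), and for Tgfbr2 Atxn7l1, Cmtm6 and Uevld (r 0.91 to 0.95). Tgfbr1 went closely with Thoc2 (r 0.97) and Brpf3 (r 0.96). For Smad3 the 3 were Polr1a, Snora81 and Mybbp1a (r 0.91 to 0.95), of which Polr1a and Mybbp1a belong to ribosomal RNA synthesis. Snora81 averaged only 0.476 CPM in WT and 2.43 CPM in iFAXLKO, and was called between the groups (adjusted p 2.95e-05 by edgeR). Ltbp1 went with Kctd20, Pld2 and Npr2 (r 0.89 to 0.91), and Tgfb2 with Gm29094, Rhpn2 and Eda2r (r 0.80 in each case).

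Marker genes of other cells are given beside these values, and apart from 1 brown adipocyte marker 0 of them passed after adjustment by edgeR. Over all genes 46.4% lay above 0, and 3.84% were higher and 3.54% lower at an unadjusted p under 0.05. Fibroblast markers had log2 fold changes above 0 for 10 of 10 genes (8 at an unadjusted p under 0.05), with a median of 0.51 and summed levels of 1379 to 1735 CPM against 1010 to 1450 CPM in WT. Macrophage markers lay above 0 for 10 of 10 genes (7 at that limit), with a median of 0.39 and summed levels of 141 to 278 CPM against 122 to 174 CPM. Endothelial markers lay above 0 for 9 of 10 genes (1 at that limit, median 0.12, 1019 to 1547 CPM against 861 to 1291 CPM), and pericyte and smooth muscle markers for 10 of 10 (0 at that limit, median 0.16, 743 to 966 CPM against 602 to 919 CPM). Brown adipocyte markers lay below 0 for 10 of 11 genes (1 at that limit) with a median of -0.08, and the exception, Adipoq, rose from 708 ± 92.7 CPM (SD, n = 5) in WT to 1120 ± 132 CPM (SD, n = 8), with an adjusted p of 0.0118 by edgeR, and is the gene whose promoter region drives the Cre. None of the markers of these 5 cell types averaged under 1 CPM. Skeletal muscle markers summed to 2.55 to 4332 CPM in iFAXLKO and 17.5 to 2977 CPM in WT, and 7 of 8 lymphocyte markers averaged under 1 CPM. Erythroid markers lay above 0 for 5 of 5 genes (median 0.34, 386 to 685 CPM against 285 to 709 CPM), white adipocyte markers for 5 of 5 (median 0.21, 69.8 to 140 CPM against 36.0 to 146 CPM) and Schwann cell markers for 7 of 8 (median 0.08, 155 to 316 CPM against 243 to 382 CPM), with 1, 2 and 2 genes above 0 at an unadjusted p under 0.05. The summed levels of the groups overlapped for each of these lists. The part of these cell types in the values of the 9 genes was not tested by any measurement that separates cells.

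Across the 13 libraries, 0 of 45 relations between a member and a marker score passed after adjustment by the permutation test with 100000 orders. With group means subtracted, the smallest p belonged to Tgfbr3 and the brown adipocyte score, with Pearson's r of -0.72 (permutation p 0.00259, adjusted p 0.117) and Spearman's rho of -0.68 (permutation p 0.0196, adjusted p 0.274). It was -0.67 once the 2 libraries most distant from the median score were left out, and -0.94 and -0.81 within the lower and upper range of library numbers. Without WT replicate 3 its adjusted p was 0.0391 and its r -0.74. Smad7 and the macrophage score followed with an r of 0.70 (permutation p 0.0166, adjusted p 0.223) and a rho of 0.59 (permutation p 0.0464, adjusted p 0.277). That r was 0.62 without the 2 farthest libraries and 0.48 and 0.90 within the ranges. The macrophage score and Tgfb3 had an r of 0.66 and a rho of 0.70 (adjusted permutation p 0.223 and 0.274), and the pericyte and smooth muscle score and Ltbp1 an r of 0.68 and a rho of 0.64 (adjusted permutation p 0.223 and 0.274). Without the 2 farthest libraries these were 0.57 and 0.48, and within the lower and upper range of library numbers 0.28 and 0.85 for Tgfb3, and 0.44 and 0.94 for Ltbp1.

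Around the members came the other receptors and SMADs. Of the 8 genes tested, 5 were above 0 and 3 below, the median log2 fold change was 0.01, and 0 passed at either limit. Smad1, which carries BMP signals, had 0.16 (SE 0.09, adjusted p 0.717 by edgeR) and Smad4, the common partner SMAD, had -0.13 (SE 0.08, adjusted p 0.744), with 0 of 8 iFAXLKO libraries above the WT mean. Smad2, the partner of Smad3, had -0.09 (SE 0.09), and Smad9 had 0.24 (SE 0.25).

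A further list holds genes that keep TGF-beta latent or release it. In this list 14 of 17 tested genes were above 0 and 3 below, with a median log2 fold change of 0.23, where 46.4% of all genes lay above 0. At an unadjusted p under 0.05, 5 were higher and 0 lower, where 3.84% of all genes were higher and 3.54% lower. After adjustment by edgeR 0 passed. Bmp1, a protease that processes procollagens and latent TGF-beta binding protein, measured 23.0 ± 2.98 CPM (SD, n = 8) in iFAXLKO and 17.1 ± 2.62 CPM (SD, n = 5) in WT, which differ by 0.43 on the log2 scale (SE 0.11), with an adjusted p of 0.310 by edgeR. DESeq2 called it with an adjusted p of 0.0433, and over 13 fits without 1 library and 10 other alternatives its adjusted p ran from 0.0433 to 1.00. Mmp2, a gelatinase, had a log2 fold change of 0.41 (SE 0.13), Fbn1, the fibrillin of microfibrils, 0.60 (SE 0.21), and Itgb3, an integrin subunit, 0.67 (SE 0.25), with adjusted p-values of 0.462, 0.517 and 0.537 by edgeR. With the fibroblast score as a covariate 11 of 17 were above 0 and the median was 0.05. In that fit 0 had an unadjusted p under 0.05, against 225 of all 13360 genes, and Bmp1 had 0.09, Mmp2 0.18, Fbn1 0.07 and Itgb3 -0.09. Itgb6 and Itgb8, subunits of the integrins that activate TGF-beta, averaged under 1 CPM and were not tested.

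Of the intracellular regulators 15 of 18 tested genes were below 0 and 3 above, with a median of -0.09, where 46.4% of all genes lay above 0. At an unadjusted p under 0.05, 3 were lower and 1 higher, where 3.54% of all genes were lower and 3.84% higher. After adjustment by edgeR 0 passed. Those lower were Tab2, an adaptor of the kinase TAK1, at -0.22 (SE 0.08), Usp15, a deubiquitinase of receptor and SMADs, at -0.19 (SE 0.07), and Zfyve9, the SMAD anchor at endosomes, at -0.19 (SE 0.08), each with 0 of 8 iFAXLKO libraries above the WT mean. With the fibroblast score as a covariate 0 genes were lower at that limit, against 112 of all 13360 genes, and Tab2 had -0.05, Usp15 -0.15 and Zfyve9 -0.05. Bambi, a pseudoreceptor that blocks TGF-beta signalling, was the gene higher, at 1.17 ± 0.10 CPM (SD, n = 8) against 0.838 ± 0.14 CPM (SD, n = 5). It was the only listed pathway gene whose CPM ranges did not overlap, where 0.434% of all genes had such ranges. Its log2 fold change was 0.49 (SE 0.15, adjusted p 0.474 by edgeR), and since all WT libraries lay under 1 CPM it passed the filter only through the iFAXLKO libraries.

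Of 31 tested TGF-beta target genes, 23 were above 0 and 8 below, with a median of 0.21, where 46.4% of all genes lay above 0. At an unadjusted p under 0.05, 7 were higher and 0 lower, where 3.84% of all genes were higher and 3.54% lower. After adjustment by edgeR 0 passed. The 4 with the smallest p were 3 fibrillar collagen genes and Tgfbi, a matrix protein named for its induction by TGF-beta. Col3a1 measured 306 ± 114 CPM (SD, n = 8) against 186 ± 60.3 CPM (SD, n = 5), which differ by 0.71 on the log2 scale (SE 0.26), with an adjusted p of 0.535 by edgeR. Col1a2 had 0.66 (SE 0.23), Col5a1 0.64 (SE 0.22) and Tgfbi 0.37 (SE 0.14). With the fibroblast score as a covariate 8 of 31 target genes were above 0, against 46.1% of all genes, and the median was -0.09. The log2 fold changes of these 4 then lay between -0.06 and 0.07. The fibroblast score itself includes matrix genes, a collagen gene among them, so that fit cannot separate the score from a change in matrix targets. The feedback targets Skil and Pmepa1, which are also in the list of intracellular regulators, had -0.08 (SE 0.17) and -0.43 (SE 0.25), and were chosen for mention after their values were seen. The target list also holds the member Smad7, and it shares further genes with the latency list and with the pericyte and smooth muscle markers. Counts over these lists are thus not of separate genes.

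**Figure D4:**
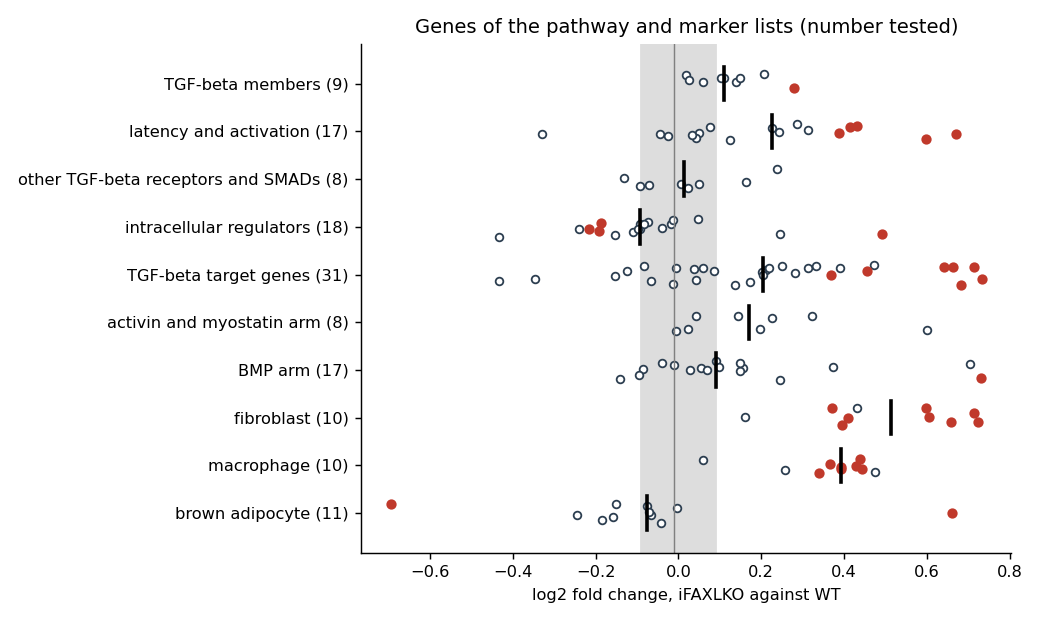
Log2 fold change of iFAXLKO against WT by edgeR for the tested genes of 7 pathway lists and 3 marker lists, 1 point per gene, filled red at an unadjusted p under 0.05, with a black bar at the list median and a grey band from the 25th to the 75th percentile of all 13360 genes (-0.09 to 0.09). Medians are 0.11 for the 9 members, 0.23 for latency and activation, -0.09 for intracellular regulators, 0.21 for target genes and 0.51 for fibroblast markers.

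In the activin and myostatin arm 7 of 8 tested genes were above 0 and 1 below (median 0.17), and 0 had an unadjusted p under 0.05. Of all genes 46.4% lay above 0, and 3.84% were higher and 3.54% lower at that limit. Fst, the secreted activin trap follistatin, measured 4.00 to 22.7 CPM in iFAXLKO and 6.26 to 8.74 CPM in WT, and its mean differed by 0.60 on the log2 scale (SE 0.34), with an adjusted p of 0.734 by edgeR. Acvr1b, Acvr2b and Inhbb, which encode activin receptors and an activin subunit, had 0.14 (SE 0.12), 0.23 (SE 0.22) and 0.32 (SE 0.33). In the BMP arm 12 of 17 tested genes were above 0 and 5 below (median 0.09), against the same 46.4% of all genes. Chrd, the BMP antagonist chordin, was the 1 gene with an unadjusted p under 0.05, at 1.34 ± 0.30 CPM (SD, n = 8) against 0.805 ± 0.24 CPM (SD, n = 5), which differ by 0.73 on the log2 scale (SE 0.21), with an adjusted p of 0.408 by edgeR. Since 4 of 5 WT libraries lay under 1 CPM, it too passed the filter through the iFAXLKO libraries, and with the fibroblast score as a covariate its log2 fold change was 0.14. Gdf10, Gdf5 and Bmp6, ligand genes placed in this list, had 0.37 (SE 0.19), 0.70 (SE 0.47) and 0.16 (SE 0.16).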

How the data were processed

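The deposited files hold raw read counts made by the authors, 1 whole number per Ensembl gene identifier and library, with no normalization. The submitters' processing notes list bcl2fastq 2.20, fastp 0.20.0, STAR 2.7.4a, DESeq2 and GRCm38.p6, whereas the methods of the study name Trim Galore, hisat2 and GRCm38 with Ensembl transcripts. The labels give polyadenylated RNA, and the methods depletion of ribosomal RNA. The counting tool and strand setting are not given in the sources used here, so reads of overlapping genes may be split in an unknown way. Positions and exon lengths came from GENCODE M21 (GRCm38). Pairs of libraries within a group differed by a chi-square of at least 15.44 per degree of freedom over genes, so each was 1 replicate.

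The counts, with TMM scaling, entered edgeR 4.0.16 (R 4.3.3) and its quasi-likelihood F test with robust dispersions, 2-sided, on genes over 1 CPM in at least 5 libraries, with Benjamini-Hochberg adjustment over all genes tested and a limit of 0.05. The 95% intervals are from the same fit. Log2 CPM used a prior count of 2. The script was tested on simulated data with known changes. Level per length is CPM divided by kb of exon. A marker score is the mean log2 CPM of its list, and its relations were tested with 100000 orders drawn within groups. Numbers that the labels give the libraries served as a lower and an upper range, whose meaning the labels do not state. Intervals and floors cover counting error or spread between these mice only, and the reads carry no molecular identifiers and are not independent molecules.

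The members and lists were chosen with earlier results of these data known, so no count over a list is independent evidence. The rule for names takes the 9 members, Axl, up to 4 genes per pathway list with the smallest p or past the adjusted limit, and the 3 genes most like each member. Where a gene under this rule is left unnamed, it is not reported here. Alternatives were DESeq2 1.42.0, limma-voom (limma 3.58.1) with sample quality weights, RLE factors, library sizes without mitochondrial and the 10 most abundant genes, no filter, filterByExpr, the replicate block, library number range, fibroblast score and skeletal muscle score as covariates, and leaving out each library. The replicate numbers do not pair mice in the labels.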

Additional observations from a re-analysis of the deposited data

Results flagged for a closer look

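Of 68 groups of libraries, 2 for each of 34 genes, 4 held a library that stood apart from the rest of its group by Dixon's criterion, which chance meets in about 1 of 20 groups. For Smad9 this was iFAXLKO replicate 3, with 4.06 CPM against 2.59 CPM in the next highest. For Tgfbi it was iFAXLKO replicate 7, with 18.9 CPM against 14.9 CPM in the next highest. For Acvr2b it was WT replicate 2, with 0.869 CPM against 2.39 CPM in the next lowest, which is also the WT library with the lowest Tgfbr1. For Chrd it was WT replicate 4, with 1.22 CPM against 0.759 CPM in the next highest, inside the iFAXLKO range. None of the 9 members had such a library.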

How the results depend on the processing

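The count of members called stayed at 0 in all 10 alternatives and in the 13 fits without 1 library. The count of genes called, 17, was 67 with DESeq2, 7 with the fibroblast score as a covariate and 14 to 19 without 1 library. With the replicate block it was 7, and correlations of deviations for shared replicate numbers were 0.392, 0.422, 0.188, 0.181 and -0.614, so the numbers were not taken as pairs. Of 207 member values, 186 kept their direction, and Tgfb2, Tgfbr2 and Tgfbr3 did in all. With the fibroblast score Tgfb1 was -0.0098, Tgfb3 -0.098, Smad3 -0.027, Smad7 -0.36, Ltbp1 -0.21 and Axl -0.26. With limma-voom Tgfb3 was -0.078, Tgfbr1 -0.075, Smad7 -0.31 and Ltbp1 -0.014. With the replicate block Smad3 was -0.082 and Tgfbr3 0.22. Without 1 library Tgfb3 ran from -0.038 to 0.16, Tgfbr1 from -0.095 to 0.078 and Smad7 from -0.11 to 0.18. Of 161 list medians 2 moved by more than the spread, both with the fibroblast score, to 0.05 for latency and activation and -0.09 for target genes. Relations with marker scores past adjustment were 0 to 1 without 1 library, and separated neighbour pairs numbered 5 in each alternative, not the same pairs by coding transcript length. In WT libraries alone, where the exact test allows no p under 0.0625, Tgfbr2 and Tgfbr3 again came first. In each case the cause was not tested. Counting error is largest for Tgfb2, at a mean count of 43.9.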
